A study of Mus musculus with 40 samples.

Results

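The comparison set developing mouse oligodendrocytes that had been in interferon-gamma (IFN-gamma) for 24 h against cells that had been in it for 8 h, to follow how an interferon response that has already begun goes on. The members are the 8 libraries labelled IFN-gamma at those times, 4 at 24 h and 4 at 8 h, out of 40 in the series. All cells were wild type and on the C57BL/6 strain. Progenitors were immunopanned from the cortices of 6-day-old pups (6 to 7 days by the age label, and whole brain by the tissue label), passaged 2 times and given 12 to 14 h of differentiation before IFN-gamma was added at 200 U/ml. Untreated cells collected at 24 and 8 h, 4 libraries each, went through the same culture without the cytokine and give the change with time in culture. They were not matched to the IFN-gamma libraries in the level of Y-linked genes, as given below. IFN-gamma and untreated cells of 1 and 48 h served to sort genes into early and late ones. The cytokine was added to a purified culture and the labels do not say whether the 4 libraries of a group came from separate cultures, so p-values measure only the spread between these libraries. In such bulk RNA, fewer cells of a type and less RNA per cell cannot be told apart.

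IFN-gamma binds a receptor made of Ifngr1 and Ifngr2, which activates the kinases Jak1 and Jak2. The signal reaches gamma-activated sites (GAS) in promoters and switches on a first set of genes within about an hour, among them Irf1 and other transcription factors, which then act on interferon-stimulated response elements (ISRE) and on further genes. Genes of antigen presentation depend on coactivators that are themselves induced, Nlrc5 for class I and Ciita for class II of the major histocompatibility complex (MHC). Oligodendrocytes make myelin, usually show few MHC molecules, and are known to mature more slowly in IFN-gamma.

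The promoters below are those of 4 genes with different courses after 8 h: a class I heavy chain, the class I light chain, a class II chain and a guanylate-binding protein. They are RefSeq sequences on build GRCm38.p6, each from 250 bases before to 50 bases after the annotated start and written on the strand of the gene, and capitals mark motif matches. H2-K1 lies at chr17:34000298-34000597 on the minus strand (the first of its 2 annotated starts), B2m at chr2:122147437-122147736 on the plus strand, H2-Aa at chr17:34287774-34288073 on the minus strand and Gbp2 at chr3:142620413-142620712 on the plus strand.
H2-K1: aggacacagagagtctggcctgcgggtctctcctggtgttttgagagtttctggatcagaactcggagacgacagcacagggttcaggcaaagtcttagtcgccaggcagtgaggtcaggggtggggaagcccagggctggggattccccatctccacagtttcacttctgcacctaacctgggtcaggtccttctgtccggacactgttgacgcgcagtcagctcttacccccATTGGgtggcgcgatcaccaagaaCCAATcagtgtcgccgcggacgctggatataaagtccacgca
B2m: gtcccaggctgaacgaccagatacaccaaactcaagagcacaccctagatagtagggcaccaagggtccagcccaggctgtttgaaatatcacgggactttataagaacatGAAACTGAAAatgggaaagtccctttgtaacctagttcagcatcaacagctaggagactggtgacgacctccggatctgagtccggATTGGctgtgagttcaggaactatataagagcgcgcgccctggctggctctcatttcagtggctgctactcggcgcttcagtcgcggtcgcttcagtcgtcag
H2-Aa: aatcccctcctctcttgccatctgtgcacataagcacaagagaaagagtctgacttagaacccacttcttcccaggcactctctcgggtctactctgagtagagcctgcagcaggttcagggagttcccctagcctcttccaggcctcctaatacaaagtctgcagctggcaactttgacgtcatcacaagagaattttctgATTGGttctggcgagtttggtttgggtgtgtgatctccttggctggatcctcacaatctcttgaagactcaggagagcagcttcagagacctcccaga
Gbp2: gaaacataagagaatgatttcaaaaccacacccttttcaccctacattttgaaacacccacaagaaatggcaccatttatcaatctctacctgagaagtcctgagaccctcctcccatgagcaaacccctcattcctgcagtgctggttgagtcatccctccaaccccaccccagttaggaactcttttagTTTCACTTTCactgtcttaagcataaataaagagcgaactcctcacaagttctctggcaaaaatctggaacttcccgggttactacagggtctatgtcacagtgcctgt
Both strands were searched for 3 motifs: TTCNNNGAA, the core of a GAS, GAAANNGAAA, the core of an ISRE, and CCAAT, the box of that name. In H2-K1 the capitals are CCAAT matches that begin 16 bases before and 8 bases after the start, in H2-Aa a CCAAT match 48 bases before it, in B2m an ISRE match 139 bases and a CCAAT match 53 bases before it, and in Gbp2 an ISRE match 59 bases before it. CCAAT was present in the promoters of 9 of 9 class I chain genes and 4 of 5 class II genes that had an entry, against 37.4% of all 32851 promoters. It was present for 1 of 4 guanylate-binding protein genes and 3 of 10 immunity-related GTPase genes. The ISRE core was present for 4 of 4 guanylate-binding protein genes, 7 of 10 immunity-related GTPase genes, 3 of 9 class I chain genes and 0 of 5 class II genes, against 3.44% of all promoters. The GAS core was present for 2 of 4 guanylate-binding protein genes, 5 of 10 immunity-related GTPase genes, 1 of 9 class I chain genes and 0 of 5 class II genes, against 8.30% of all promoters. Of 12 genes of class I peptide supply and loading, 6 held CCAAT, 2 the ISRE core and 1 the GAS core. Among promoters of the genes tested, 37.9% held CCAAT, 2.92% the ISRE core and 6.71% the GAS core. Over all genes that were higher at 24 h, 37.0% of promoters held CCAAT, 2.64% the ISRE core and 4.99% the GAS core, and for those lower at 24 h the shares were 37.3, 4.54 and 7.94%. These are matches of letters and not sites of binding.

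The 8 libraries held 15683135 to 21538809 reads on genes, and 15135 genes had enough reads to be tested. Levels are given as CPM, read counts scaled to library size. Every pair of replicates differed by more than sampling noise, by a chi-square of 9.79 to 85.7 times its degrees of freedom. The highest of these involve the 8 h replicate 1, where ribosomal-RNA-like genes took 9.57% of the reads, against 0.705 to 4.14% in the other 7 libraries. At 24 h, replicate 1 stood apart in several of the gene groups below. Replicates 1 and 3 of both groups held 0.656 to 7.28 CPM of Y-linked genes and replicates 2 and 4 held 305 to 316 CPM, so this split was the same at 24 and 8 h. All untreated libraries of 24 and 8 h held 199 to 331 CPM of these genes. Treated and untreated libraries were thus not matched in this, and comparisons between them carry that difference too. The lineage markers fit the labelled cell type: Olig2 averaged 788 ± 119.8 CPM at 24 h and 786 ± 66.6 CPM at 8 h, and Sox10 averaged 643 ± 79.1 and 585 ± 43.7 CPM (SD, n = 4 each).

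Between 8 and 24 h in IFN-gamma, 1369 genes (9.05% of those tested) changed at a Benjamini-Hochberg adjusted p under 0.05 in edgeR's quasi-likelihood test: 663 were higher at 24 h (4.38%) and 706 lower (4.66%). Most changes were small, since 239 were at least 2-fold, 99 of them higher and 140 lower, and the median log2 fold change over all genes was 0.01. In untreated cells 53 genes changed over the same interval (0.350%), 18 higher (0.119%) and 35 lower (0.231%) at 24 h, a count that ran from 9 to 177 when 1 library was left out. The balance of that count depended on the setting: it was 160 higher and 111 lower in DESeq2, 128 and 97 when libraries numbered up to 20 and those above were given a term each, 108 and 69 without the untreated 8 h replicate 4, and 75 and 33 without the untreated 24 h replicate 3. No library of 24 h overlapped with those of 8 h in IFN-gamma for 2680 genes, 17.7% of those tested, which is the background for statements below that groups are separate. The largest rises, falls and differences from the untreated change were named on condition of no overlap. For genes named by that rule alone, separate groups are a condition and not a result. The 4.38 and 4.66% above are likewise the background for counts of list members that rose or fell. Changes named below are those with time in IFN-gamma, and 184 of the 1369 genes also passed the test against the untreated change. For the rest, a difference from the change in untreated cells was not shown. The count in IFN-gamma cells was 895 without the 8 h replicate 1, 909 without the 24 h replicate 3 and 908 without the 24 h replicate 4, and 1306 without the 24 h replicate 1. The fit estimates the spread of each gene over all 10 groups, and a fit of the 8 libraries alone called 1862 genes, 1197 of them shared.

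The class I chains, which hold peptides at the cell surface for CD8 T cells, rose together. Of 12 tested, 10 rose and 0 fell, with a median log2 fold change of 2.17, and 10 rose when any 1 library was left out and in each range of library numbers alone. Summed over the list, the chains made up 5204 to 5777 CPM at 24 h and 1444 to 1746 CPM at 8 h, against 73.8 to 87.2 and 73.01 to 92.8 CPM in untreated cells at 24 and 8 h.
H2-K1 (ENSMUSG00000061232.15), a classical heavy chain whose promoter is shown above, had 1262, 1321, 1228 and 1267 CPM at 24 h, against 148, 125, 138 and 144 CPM at 8 h. The groups lie far apart and the replicates close together, for a log2 fold change of 3.19 ± 0.20 (SE) and an adjusted p of 6.45e-14 in edgeR. H2-D1, the other classical chain of this strain, had 1323, 1416, 1326 and 1358 CPM at 24 h and 258, 240.2, 298 and 285 CPM at 8 h, a log2 fold change of 2.33 ± 0.13. All 4 libraries of 24 h stood well above all of 8 h here too. B2m (ENSMUSG00000060802.8), the light chain that every class I molecule needs, had 1397, 1684, 1615 and 1675 CPM at 24 h and 647, 622, 724 and 748 CPM at 8 h, again without overlap. Its log2 fold change of 1.22 ± 0.13 was smaller than that of either classical heavy chain, and its adjusted p was 6.72e-08 in edgeR.
Among the non-classical chains, H2-Q6 averaged 32.8 ± 2.72 CPM at 24 h and 2.16 ± 0.426 CPM at 8 h, the largest rise of all named genes at a log2 fold change of 3.92 ± 0.23. H2-Q7 averaged 165 ± 11.9 CPM at 24 h and 19.3 ± 3.69 CPM at 8 h, and H2-Q4 387 ± 27.4 and 95.6 ± 12.6 CPM. All 3 rose, and no library of 24 h overlapped with 8 h. H2-M3, which presents formylated peptides, averaged 18.9 ± 1.37 CPM at 24 h and 3.74 ± 0.562 CPM at 8 h (SD, n = 4 each). H2-Q5 averaged 8.85 ± 0.99 CPM at 24 h and 0.837 ± 0.183 CPM at 8 h. Its log2 fold change was 3.38 ± 0.25 and, in the isoform table, 1.83. The H2-Q and H2-T genes are near copies of each other, so reads may have been split among them and their single values are uncertain. The exceptions were H2-T23, the mouse Qa-1 chain, with 269, 287, 319 and 332 CPM at 24 h and 216, 205, 222 and 248 CPM at 8 h (log2 fold change 0.44 ± 0.16, edgeR adjusted p 0.0919), and H2-T24, with a log2 fold change of -0.38 (adjusted p 0.71). The groups of H2-T23 were separate, and in the fit of the 8 libraries alone its adjusted p was 0.0054.

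**Figure D1:**
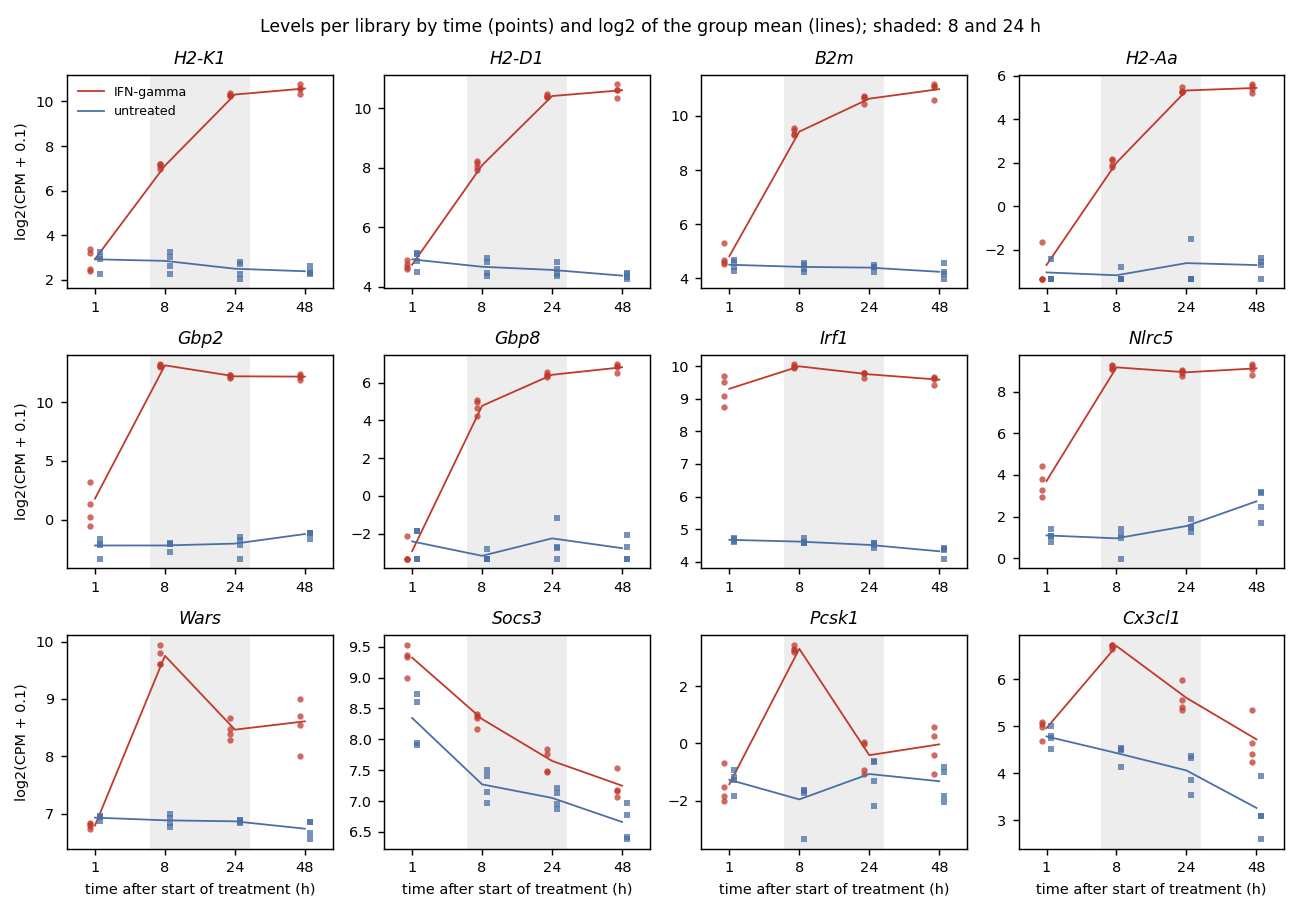
Level of 12 genes in every IFN-gamma (circles) and untreated (squares) library at 1, 8, 24 and 48 h, on an axis of log2(CPM + 0.1). H2-K1, H2-D1, B2m, H2-Aa and Gbp8 stand higher at 24 h than at 8 h in IFN-gamma cells, Gbp2, Wars, Socs3, Pcsk1 and Cx3cl1 lower, and Nlrc5 at 485 CPM at 24 h and 572 CPM at 8 h on average.

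Genes of class II presentation, whose products show peptides to CD4 T cells, were the second group to rise as a whole, from a low level at 8 h. All 7 tested members rose, 7 when any 1 library was left out and 6 in each range of library numbers alone, with a median log2 fold change of 2.35. Their summed level was 236 to 255 CPM at 24 h and 40.8 to 48.9 CPM at 8 h, against 7.98 to 10.1 and 7.995 to 8.88 CPM in untreated cells at 24 and 8 h. H2-Aa (ENSMUSG00000036594.14), an alpha chain, had 38.3, 37.8, 43.7 and 39.1 CPM at 24 h, against 3.67, 3.37, 4.19 and 4.37 CPM at 8 h. Every library of 24 h was far above every library of 8 h, with a log2 fold change of 3.35 ± 0.22 and an edgeR adjusted p of 6.30e-13. The beta chain H2-Eb1 had 84.6, 87.7, 89.4 and 80.8 CPM at 24 h and 9.37, 8.03, 10.03 and 10.2 CPM at 8 h. Another beta chain, H2-Ab1, had 72.3, 68.3, 66.1 and 60.5 CPM at 24 h and 12.9, 12.8, 13.8 and 14.8 CPM at 8 h. Cd74, the invariant chain that escorts class II molecules, had 10.6, 13.1, 11.3 and 13.3 CPM at 24 h and 1.22, 0.842, 1.05 and 0.642 CPM at 8 h. The groups of all 3 were separate, and Cd74 had a log2 fold change of 3.67 ± 0.30. H2-DMb1, part of the complex that exchanges peptides on class II, averaged 4.84 ± 0.539 CPM at 24 h and 0.94 ± 0.256 CPM at 8 h (SD, n = 4 each). The remaining 5 genes listed had 0 to 21 reads over the 8 libraries and were not tested, among them Ctss, the protease that trims Cd74 in macrophages and other professional presenting cells, with 2 reads.

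The coactivators and the peptide supply moved little over the same hours. Ciita, which class II genes require, had 54.2, 57.9, 66.8 and 57.8 CPM at 24 h and 40.4, 41.1, 40.02 and 45.02 CPM at 8 h. The 4 libraries of 24 h all lay above those of 8 h, and the log2 fold change of 0.51 ± 0.23 had an adjusted p of 0.185 in the edgeR fit of all groups and 0.00161 in the fit of the 8 libraries alone. Nlrc5, the class I coactivator, averaged 485 ± 41.3 CPM at 24 h and 572 ± 35.97 CPM at 8 h (log2 fold change -0.24 ± 0.21, edgeR adjusted p 0.582). Of 14 genes of class I peptide supply and loading, 2 rose and 0 fell, with a median log2 fold change of 0.01. These were Psme1, an activator subunit of the proteasome, at 304 ± 8.69 CPM at 24 h and 226 ± 16.04 CPM at 8 h, and Psmb8, a catalytic subunit of the immunoproteasome, at 560.5, 518, 512 and 548 CPM at 24 h and 363, 336, 381 and 400.1 CPM at 8 h. Psmb8 did not overlap between groups, but its edgeR adjusted p of 0.028 was 0.0547 to 0.0931 without the 24 h replicate 1 or 4 or the 8 h replicate 1, 2 or 3. The related subunit Psmb9 averaged 202 ± 4.59 CPM at 24 h and 159 ± 7.77 CPM at 8 h (edgeR adjusted p 0.066, and 0.00148 in the fit of the 8 libraries). Genes that did not pass in either fit were Tap1, a subunit of the peptide transporter, the loading factor Tapbp and Psmb10. Tap1 averaged 522 ± 30.6 CPM at 24 h and 466 ± 24.4 CPM at 8 h. Tapbp averaged 284 ± 6.81 and 250.1 ± 20.2 CPM, and Psmb10 271 ± 6.87 and 292 ± 21.2 CPM (SD, n = 4 each). Of the 14 subunits of the constitutive 20S proteasome, Psma3 alone passed, with a log2 fold change of -0.17 ± 0.05 and an edgeR adjusted p of 0.0401 that was 0.0512 to 0.120 without the 24 h replicate 2, 3 or 4 or the 8 h replicate 1 or 3.

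Most signalling genes did not pass the test, and those that did were lower at 24 h. Of 17 genes of IFN-gamma signalling and its transcription factors, 0 rose and 3 fell, and the same counts were found when any 1 library was left out. The fit of the 8 libraries alone called 2 higher and 6 lower, with Ciita among those higher. Jak1, a kinase of the receptor, had 120.3, 123, 125 and 119.6 CPM at 24 h and 148, 162, 163 and 163 CPM at 8 h (log2 fold change -0.38 ± 0.06). Ifngr2, the signalling chain of the receptor, averaged 18.1 ± 0.708 CPM at 24 h and 23.7 ± 1.14 CPM at 8 h. Stat3, a transcription factor of many cytokines, had 575, 559.9, 563 and 575 CPM at 24 h and 717, 707, 725 and 721 CPM at 8 h, a small change beside a very small spread. All 3 fell with no overlap between groups.
Irf1, a direct early target, had 879.9, 789, 886 and 883 CPM at 24 h and 999.8, 990.4, 1021 and 1062 CPM at 8 h. Its groups are separate, and the adjusted p of its log2 fold change of -0.24 ± 0.11 was 0.182 in the edgeR fit of all groups and 0.0121 in the fit of the 8 libraries alone. Irf8 averaged 269 ± 10.9 CPM at 24 h and 299.6 ± 9.01 CPM at 8 h, and Irf9, a part of the factor that binds an ISRE, 130.5 ± 3.92 and 127 ± 6.11 CPM (SD, n = 4 each), both with adjusted p above 0.05 in that fit of all groups.
Of 10 feedback inhibitors of cytokine signalling, 1 rose and 1 fell. Socs3, an inhibitor of JAK kinases, had 218, 229, 178 and 179 CPM at 24 h and 334, 341, 324 and 286 CPM at 8 h. All 24 h libraries were lower, with a log2 fold change of -0.68 ± 0.16 and an edgeR adjusted p of 0.00402. Sh2b3, an adaptor that limits cytokine receptors, averaged 21.6 ± 1.02 CPM at 24 h and 16.2 ± 0.723 CPM at 8 h and rose. Socs1, the main inhibitor of this pathway, had 91.5, 84.3, 61.1 and 50.9 CPM at 24 h and 119, 93.7, 112 and 69.9 CPM at 8 h, which overlap (edgeR adjusted p 0.225).

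The interferon-inducible GTPases, which attack the vacuoles of intracellular parasites, were near their 8 h level with a few exceptions. Of 10 guanylate-binding proteins tested, Gbp8 rose and Gbp2 fell, and the median log2 fold change was -0.01. The fit of the 8 libraries alone called 2 of them higher and 2 lower. Gbp8 had 93.5, 84.5, 84.5 and 77.7 CPM at 24 h and 33.4, 31.7, 25.03 and 18.7 CPM at 8 h, a separation of every library (log2 fold change 1.64 ± 0.18, edgeR adjusted p 1.09e-07). Gbp2 (ENSMUSG00000028270.12) had 4536, 4253, 4966 and 5030.4 CPM at 24 h and 8846, 8375, 9139.6 and 9497 CPM at 8 h. The 24 h libraries were all lower, with a log2 fold change of -0.93 ± 0.31, but the edgeR adjusted p of 0.0494 was 0.0786 to 0.112 when any 1 of the 8 libraries was left out, 0.253 in DESeq2 and 4.47e-05 in the fit of the 8 libraries alone. Gbp5 averaged 53.2 ± 4.85 CPM at 24 h and 66.7 ± 3.48 CPM at 8 h (SD, n = 4 each, edgeR adjusted p 0.401, and 0.0153 in the fit of the 8 libraries).
Of 13 immunity-related GTPases, 0 rose and 2 fell (0 and 3 in the fit of the 8 libraries alone). F830016B08Rik had 73.9, 102, 79.2 and 73.2 CPM at 24 h and 120.1, 144, 119 and 107 CPM at 8 h. Its highest 24 h library lies a few CPM under its lowest 8 h library, and the log2 fold change was -0.58 ± 0.13. Ifi47 had 426, 466, 513 and 506 CPM at 24 h and 685, 627, 705 and 719 CPM at 8 h. Its groups were separate, yet its edgeR adjusted p of 0.046 was 0.0582 to 0.110 without any 1 of the 8 libraries. The effectors Iigp1 and Tgtp2, a near copy of Tgtp1, and the regulators Irgm1 and Igtp did not pass, with edgeR adjusted p from 0.728 to 0.996. Iigp1 averaged 2452 ± 246 CPM at 24 h and 2458 ± 76.04 CPM at 8 h, and Tgtp2 941 ± 137 and 927 ± 38.5 CPM. Irgm1 averaged 2534 ± 172 CPM at 24 h and 2362 ± 113 CPM at 8 h, and Igtp 1516 ± 97.1 and 1715 ± 76.2 CPM (SD, n = 4 each). Of these, the groups of Igtp alone were separate.

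Few of the antiviral genes that interferons of both types induce passed the test, and these went in both directions. Of 33 tested, 4 rose and 2 fell, where 4.38% of all genes tested rose and 4.66% fell. The fit of the 8 libraries alone called 9 and 5. The count that rose was 1 without the 24 h replicate 3 or the 8 h replicate 2 and 2 without the 24 h replicate 4 or the 8 h replicate 1 or 4, and the count that fell was 0 without the 24 h replicate 4 or the 8 h replicate 1 or 2 and 1 without the 24 h replicate 1, 2 or 3 or the 8 h replicate 3. Ifi27, a mitochondrial and nuclear-envelope protein, had 131, 145, 148 and 158 CPM at 24 h and 53.6, 62.5, 59.5 and 73.5 CPM at 8 h. The groups do not overlap, and the log2 fold change was 1.22 ± 0.14. Oas1a, a synthetase of the RNA-degrading 2-5A system, averaged 10.9 ± 1.05 CPM at 24 h and 5.83 ± 0.439 CPM at 8 h and rose, and its near copy Oas1g averaged 1.45 ± 0.371 and 0.547 ± 0.229 CPM. The edgeR adjusted p of Oas1a, 0.0159, was 0.0517 and 0.0568 without the 24 h replicate 3 or the 8 h replicate 2, and that of Oas1g, 0.023, was 0.0552 to 0.106 without the 24 h replicate 3 or 4 or the 8 h replicate 1, 2 or 4. Samhd1, a nucleotide hydrolase, was lower, at 82.1, 70.9, 74.7 and 71.5 CPM at 24 h and 99.6, 101, 91.1 and 92.9 CPM at 8 h. Its groups were separate, and its edgeR adjusted p of 0.0239 was 0.0548 to 0.0609 without the 24 h replicate 2 or 4 or the 8 h replicate 1 or 2. The log2 fold change of Samhd1 was -0.36 in IFN-gamma and -0.32 in untreated cells.
Ifit1, Isg15, Rsad2, Usp18 and Mx1 did not pass in the edgeR fit of all groups. The ubiquitin-like Isg15 averaged 25.4 ± 1.76 CPM at 24 h and 31.7 ± 3.38 CPM at 8 h, and Usp18, which removes it from proteins, 26.8 ± 0.558 and 19.7 ± 0.831 CPM. In the fit of the 8 libraries their adjusted p was 0.0297 and 9.92e-04, for changes in opposite directions. Ifit1 averaged 93.7 ± 13.1 CPM at 24 h and 106 ± 4.34 CPM at 8 h. Rsad2 averaged 19.4 ± 0.934 and 16.4 ± 1.12 CPM and Mx1 2.29 ± 0.46 and 1.66 ± 0.227 CPM (SD, n = 4 each).

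Secreted and surface immune genes changed singly and in both directions. Of 8 chemokines and cytokines tested, 0 rose and 2 fell. Cx3cl1, the membrane-bound chemokine fractalkine, had 63.4, 40.7, 47.1 and 42.3 CPM at 24 h and 106, 100.4, 104 and 107 CPM at 8 h, which do not overlap (log2 fold change -1.11 ± 0.20, edgeR adjusted p 3.22e-04). Il33, a cytokine of the IL-1 family, had 0.876, 0.141, 0.0938 and 0.26 CPM at 24 h and 1.92, 2.02, 2.15 and 2.697 CPM at 8 h. Replicate 1 of 24 h was the highest of its group, and the log2 fold change of -2.71 ± 0.42 became -3.71 without it. The T-cell attractants Cxcl10 and Cxcl9 and the growth factor Csf1 did not pass. Cxcl10 averaged 7.23 ± 3.44 CPM at 24 h and 7.93 ± 3.19 CPM at 8 h. Cxcl9 averaged 0.657 ± 0.481 and 1.19 ± 0.451 CPM and Csf1 87.1 ± 3.54 and 84.8 ± 3.65 CPM (SD, n = 4 each). Ccl2 and Ccl5 had 44 and 14 reads over the 8 libraries and were not tested.
Of 9 checkpoint, adhesion and death receptor genes, 1 rose and 3 fell. Fas, a death receptor, had 11.3, 12.7, 14.8 and 12.7 CPM at 24 h and 21.5, 20.995, 19.6 and 19.3 CPM at 8 h. Tnfrsf1a, a receptor of TNF, averaged 82.2 ± 9.59 and 112 ± 5.73 CPM, and Cd47, a signal against phagocytosis, 51.6 ± 3.74 and 68.96 ± 6.86 CPM. All 3 were lower at 24 h, with log2 fold changes of -0.66, -0.44 and -0.42. In untreated cells those of Fas, Tnfrsf1a and Cd47 were -0.15, -0.35 and -0.03. Lgals9, galectin-9, was higher, with 7.89, 8.2002, 8.63 and 9.16 CPM at 24 h and 3.96, 4.32, 4.35 and 4.56 CPM at 8 h. The checkpoint ligand Cd274 (PD-L1) averaged 84.4 ± 4.66 CPM at 24 h and 105 ± 7.95 CPM at 8 h (edgeR adjusted p 0.368, and 0.0116 in the fit of the 8 libraries), and the adhesion molecule Icam1 7.05 ± 2.46 and 10.8 ± 1.06 CPM (SD, n = 4 each, edgeR adjusted p 0.229).
Of 7 complement genes, C2 and C4b rose, with 12.5, 13.3, 15.4 and 14.4 CPM of C2 at 24 h and 9.1996, 7.97, 8.65 and 10.8 CPM at 8 h, and 136, 169.6, 196 and 214 CPM of C4b at 24 h and 105, 111, 122 and 144 CPM at 8 h. The groups of C2 are separate and those of C4b overlap, and each call held only with all libraries or without the 24 h replicate 1 or the 8 h replicate 4. Without any of the other 6 libraries, 0 of the 7 rose. C2 and C4b had log2 fold changes of 0.60 and 0.57 in IFN-gamma and 0.58 and 0.65 in untreated cells. Serping1, the C1 inhibitor, averaged 173 ± 21.3 CPM at 24 h and 125 ± 14.4 CPM at 8 h (SD, n = 4 each, edgeR adjusted p 0.0545, and 0.00991 in the fit of the 8 libraries). C3 had 13 reads over the 8 libraries. Of 5 Serpina3 genes, a cluster of near-identical protease inhibitors, 0 passed in the edgeR fit of all groups or in DESeq2 (2 at an unadjusted p under 0.05 in edgeR) and 3 fell in the fit of the 8 libraries. Serpina3f averaged 104 ± 5.22 CPM at 24 h and 132 ± 7.203 CPM at 8 h, Serpina3g 0.851 ± 0.179 and 1.83 ± 0.392 CPM and Serpina3n 544 ± 114 and 619.5 ± 54.1 CPM.

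Among 17 genes of caspases, pyroptosis and necroptosis, 2 rose and 1 fell (2 fell without the 24 h replicate 1). Casp12, an inflammatory caspase of the endoplasmic reticulum (ER), had 55.5, 57.3, 56.2 and 55.8 CPM at 24 h and 24.05, 24.1, 29.5 and 29.9 CPM at 8 h. Its levels at 24 h are nearly the same in all 4 libraries and lie far above those at 8 h, with a log2 fold change of 1.06 ± 0.11. Casp1, the caspase of inflammasomes, had 18.02, 17.2, 17.7 and 17.3 CPM at 24 h and 12.2, 10.9, 12.2 and 12.1 CPM at 8 h, separate groups whose edgeR adjusted p of 0.041 was 0.0764 to 0.122 without any 1 of the 8 libraries. Bax, which opens mitochondria in apoptosis, averaged 105 ± 9.48 CPM at 24 h and 133 ± 9.28 CPM at 8 h and was lower, with an adjusted p of 0.0281 that was 0.0537 to 0.0999 without the 24 h replicate 2 or 4 or the 8 h replicate 3 or 4. Its log2 fold change was -0.34 in IFN-gamma and also -0.34 in untreated cells. Casp4, which senses bacterial lipid A, averaged 21.8 ± 2.03 CPM at 24 h and 30.3 ± 2.68 CPM at 8 h. Mlkl, the executor of necroptosis, averaged 31.1 ± 4.55 and 42.6 ± 1.904 CPM, and its upstream sensor Zbp1 54.4 ± 8.17 and 42.5 ± 4.72 CPM (SD, n = 4 each). None of the 3 passed in the edgeR fit of all groups, and in the fit of the 8 libraries the adjusted p was 0.00552 for Casp4 and 0.00937 for Mlkl.
Of 13 NF-kappaB subunits and feedback genes, 0 rose and 2 fell: Nfkbiz, with 17.3, 15.6, 14.4 and 14.7 CPM at 24 h and 23.8, 27.2, 23.9 and 23.6 CPM at 8 h, and the subunit Nfkb2, with 3.62, 2.86, 4.41 and 4.48 CPM at 24 h and 5.71, 4.83, 5.95 and 4.94 CPM at 8 h. Neither overlapped, but the edgeR adjusted p of 0.0277 for Nfkbiz was 0.0506 to 0.0796 without the 24 h replicate 2, 3 or 4 or the 8 h replicate 2 or 3, and that of 0.0291 for Nfkb2 was 0.0656 to 0.127 without the 24 h replicate 1 or 2 or the 8 h replicate 1 or 3 and 0.0646 in the fit of the 8 libraries. Nfkbiz and Nfkb2 had log2 fold changes of -0.67 and -0.48 in IFN-gamma and -0.55 and -0.20 in untreated cells.

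Of 35 target genes of the integrated stress response, which slows translation and activates the factor ATF4, 1 rose (2 without the 8 h replicate 1) and 2 fell. Wars (ENSMUSG00000021266.16), the transfer RNA synthetase for tryptophan and itself an interferon-induced gene, had 313, 335, 357 and 408 CPM at 24 h and 784, 779.7, 897 and 988 CPM at 8 h. It fell in all libraries, with a log2 fold change of -1.29 ± 0.11 and an edgeR adjusted p of 3.23e-10. Atf3, a stress-induced transcription factor, had 6.85, 1.83, 2.81 and 2.603 CPM at 24 h and 13.6, 9.32, 9.701 and 7.19 CPM at 8 h, lower at 24 h with the highest 24 h value in replicate 1. Gpt2, an alanine aminotransferase, averaged 263 ± 6.25 CPM at 24 h and 204 ± 2.76 CPM at 8 h and rose. Ddit3 (CHOP) averaged 8.63 ± 1.01 CPM at 24 h and 10.2 ± 0.786 CPM at 8 h. Trib3 had 10.3, 3.702, 3.94 and 3.75 CPM at 24 h and 5.36, 4.77, 4.02 and 3.53 CPM at 8 h, where replicate 1 of 24 h alone stands above all others, and neither of these passed.
Of 28 ER chaperones and genes of ER-associated degradation, 0 rose and 1 fell. This was Hspa5, the main ER chaperone, with 569.96, 506, 594 and 601 CPM at 24 h and 672, 665, 667 and 700.1 CPM at 8 h (log2 fold change -0.25 ± 0.07, edgeR adjusted p 0.0125, and 0.0544 without the 24 h replicate 2). In untreated cells the log2 fold change of Hspa5 was -0.19. Xbp1 averaged 66.7 ± 3.13 CPM at 24 h and 76.6 ± 1.701 CPM at 8 h (SD, n = 4 each, edgeR adjusted p 0.14).
Of 22 immediate early genes, 0 rose and 5 fell, with a median log2 fold change of -0.45 beside -0.40 in untreated cells, where 1 fell. The count in IFN-gamma cells ran from 3 without the 24 h replicate 2 to 7 without the 24 h replicate 1. Klf4, a transcription factor, had 1.53, 0.609, 0.516 and 0.729 CPM at 24 h and 4.77, 4.94, 4.02 and 3.21 CPM at 8 h, and in untreated cells it averaged 2.48 ± 0.894 CPM at 24 h and 8.44 ± 2.72 CPM at 8 h. It fell in both, and the difference of the changes had an edgeR adjusted p of 0.663. Fos averaged 85.96 ± 4.83 CPM at 24 h and 119.6 ± 9.09 CPM at 8 h, Fosl2 12.4 ± 3.43 and 22.7 ± 1.297 CPM (a call lost without the 24 h replicate 2) and Egr1, which did not pass, 13.2 ± 4.95 and 20.6 ± 1.58 CPM (SD, n = 4 each).

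**Figure D2:**
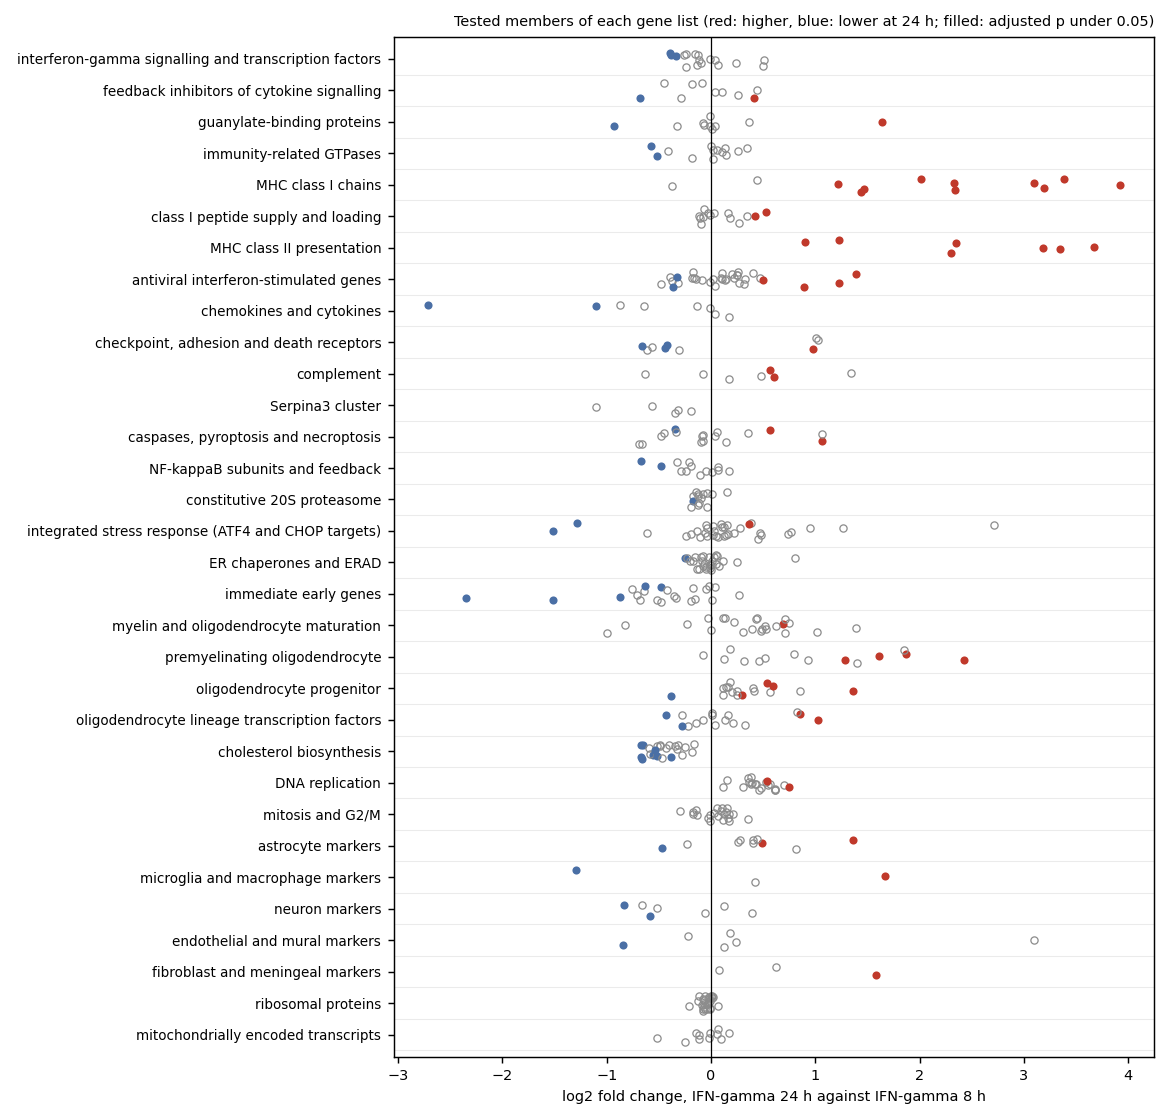
Log2 fold change, IFN-gamma 24 h against IFN-gamma 8 h, of every tested member of the gene lists, filled where the adjusted p was under 0.05. The class I chains and class II genes lie to the right, with medians of 2.17 and 2.35, while the signalling, GTPase and peptide supply lists centre near 0.

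The genes with the largest falls were mostly low at 24 h and in untreated cells and higher at 8 h in IFN-gamma. Pcsk1 (ENSMUSG00000021587.4), a convertase that cuts prohormones, had 0.931, 0.422, 0.375 and 0.885 CPM at 24 h, against 9.61, 8.98, 10.8 and 9.505 CPM at 8 h. Over the course of treatment it averaged 0.274 ± 0.168, 9.72 ± 0.77, 0.653 ± 0.296 and 0.879 ± 0.447 CPM at 1, 8, 24 and 48 h (SD, n = 4 each), so the 8 h libraries alone were high. Its log2 fold change was -3.91 ± 0.33, with an edgeR adjusted p of 1.69e-10. Another 7 genes, named like it for a fall with no overlap between groups, had log2 fold changes from -2.52 for Clic5 to -1.79 for Scg2. Clic5, a chloride channel protein, averaged 1.12 ± 0.37 CPM at 24 h and 6.35 ± 1.17 CPM at 8 h. Ly6a, a membrane-anchored surface antigen, averaged 1.77 ± 0.574 and 7.76 ± 0.544 CPM, and Upp1, a uridine phosphorylase, 4.67 ± 2.16 and 18.3 ± 1.76 CPM. Rnf128 is a ubiquitin ligase and C1qtnf1 a secreted protein related to complement C1q. Rnf128 averaged 3.45 ± 0.839 CPM at 24 h and 13.5 ± 1.24 CPM at 8 h, and C1qtnf1 4.79 ± 0.0594 and 17.2 ± 1.43 CPM. Scg2, a granin of secretory granules, averaged 1.83 ± 0.556 and 6.38 ± 0.888 CPM, and 9530053A07Rik 1.53 ± 0.523 and 5.91 ± 1.01 CPM (SD, n = 4 each).
Tnc, the matrix protein tenascin C, had 22.8, 4.26, 4.08 and 6.77 CPM at 24 h and 62.8, 39.5, 58.2 and 53.9 CPM at 8 h, and Vgf, a neuropeptide precursor, had 62.1, 9.98, 12.9 and 12.4 CPM at 24 h and 116, 97.2, 107 and 81.8 CPM at 8 h. In both the 24 h replicate 1 lay far above the other 3 libraries of its group and below all 4 of 8 h. The log2 fold change of Tnc was -2.52 ± 0.44 with it and -3.42 without it, and that of Vgf -2.05 ± 0.54 with it and -3.10 without it. The edgeR adjusted p of Vgf, 0.0116, was 0.0534 and 0.0535 without the 24 h replicate 3 or 4.

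Whether genes induced early went down again, and genes induced late went up, was read from classes chosen on other libraries: genes at least 2-fold higher in IFN-gamma than in untreated cells at 1 h (89 genes, 0.588% of those tested) or at 48 h (728 genes, 4.81%), each at an adjusted p under 0.05. No library of 24 or 8 h in IFN-gamma chose them, although all libraries share 1 estimate of the spread. In the IFN-gamma 1 h replicate 2, ribosomal-RNA-like genes took 28.2% of the reads.
Of 71 genes higher at both 1 and 48 h, 2 rose (2.82%, beside 4.38% of all genes) and 13 fell (18.3%, beside 4.66%), with a median log2 fold change of -0.18. The 2 that rose were Psmb8 and Samd9l. The 13 that fell included the protease Adamts15 at -1.13, Gbp2 at -0.93, Gm12185 at -0.84, the transcription factors Runx1 at -0.79 and Tcf7 at -0.72, and Parp3 at -0.41. Adamts15 averaged 53.97 CPM at 24 h and 118 CPM at 8 h. The count of 15 changed genes was 5 to 19 when 1 library was left out, and 7 or 8 without the 8 h replicate 1, 2 or 3 or the 24 h replicate 2 or 3 and 5 without the 24 h replicate 4.
Of 18 genes higher at 1 h only, 0 rose and 2 fell (11.1%, beside 4.66% of all genes). These 2 were Thbs1 (thrombospondin 1) at -1.06 and Zfp36, a factor that speeds the decay of messenger RNAs, at -0.63. The median was -0.10. Without 1 library the count was 0 to 3, and it was 0 without the 24 h replicate 2, the 8 h replicate 3 or the 24 h replicate 4 and 1 without the 8 h replicate 2 or 4, the 24 h replicate 3 or the untreated 48 h replicate 1 or 4.
Of 657 genes higher at 48 h only, 58 rose (8.83%) and 85 fell (12.9%), with a median of -0.01. Its quartiles, -0.33 and 0.33, lie farther apart than those of all genes, -0.12 and 0.16. Genes of this class changed between 8 and 24 h in both directions, and which direction had more depended on the setting: 43 rose and 31 fell at 4-fold, 24 and 18 in the lower 20 library numbers alone, and 40 and 39 in the upper 20.

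**Figure D3:**
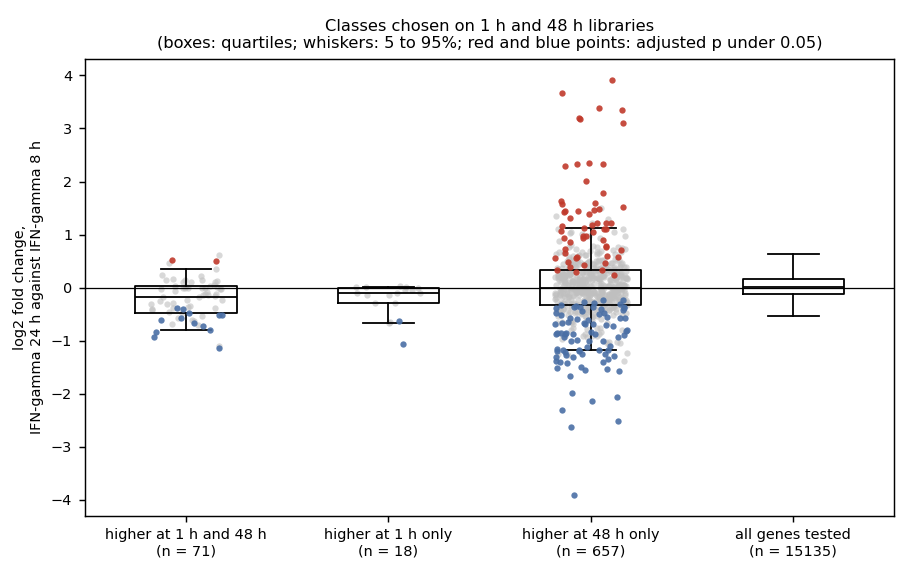
Log2 fold change, IFN-gamma 24 h against IFN-gamma 8 h, in 3 classes of genes chosen on the 1 h and 48 h libraries and in all genes tested; boxes span the quartiles, the line is the median and whiskers reach from the 5th to the 95th percentile. The class higher at 1 h and 48 h is centred at -0.18 and the others between -0.10 and 0.01.

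The change in IFN-gamma cells was then tested against the change in untreated cells over the same hours, as the interaction in the same edgeR fit. It passed for 203 genes (1.34%), 96 with the IFN-gamma change above the untreated one (0.634%) and 107 below it (0.707%). Of the 1369 genes that changed in IFN-gamma, 184 passed this test too, and 24 were among the 53 that changed in untreated cells, all 24 in the same direction. The interaction count was 125 to 277 when 1 library was left out, and 125 without the untreated 24 h replicate 4, 131 without the 8 h replicate 1 in IFN-gamma, and 135 without the untreated 8 h replicate 3 or the 24 h replicate 4 in IFN-gamma.
Among the rises that exceeded the untreated change were most class I chains. Of the 12, 9 passed, H2-K1, H2-D1, H2-Q4, H2-Q6, H2-Q7, H2-T10, H2-T22, H2-M3 and B2m. H2-K1 averaged 5.54 ± 1.401 CPM at 24 h and 7.105 ± 2.11 CPM at 8 h in untreated cells, and its changes differed by 3.57 on the log2 scale (edgeR adjusted p 5.81e-10). For H2-D1 the difference was 2.44, for H2-Q7 3.58, for H2-Q4 1.93, for H2-M3 2.21 and for B2m 1.25. H2-Q6 differed by 4.08, but its adjusted p of 0.0367 was 0.0512 to 0.179 without any 1 of 10 of the 16 libraries, and the call held only without the IFN-gamma 24 h replicate 1 or 2 or the IFN-gamma 8 h replicate 3 or 4 or the untreated 24 h replicate 4 or the untreated 8 h replicate 3. In class II, H2-Ab1 at 2.33, H2-Eb1 at 3.17 and H2-DMa passed. The call of H2-Eb1 was lost without the untreated 24 h replicate 1 or the untreated 8 h replicate 2 or 3, with adjusted p of 0.0523 to 0.257. H2-Q6, at 0.0804 and 0.0955 CPM in untreated cells at 24 and 8 h, and H2-Eb1, at 0.180 and 0.193 CPM, were near 0 there, so the size of their differences is imprecise (SE 1.04 and 0.77). For other genes with almost no reads in untreated cells, such as H2-Aa, Cd74 and Gbp2, the SE was 2.92, 1.74 and 1.28, and the untreated change is not measurable at this depth.
In the other direction Pcsk1 differed by -5.07 (edgeR adjusted p 7.39e-06) and Wars by -1.27 (adjusted p 6.46e-06), where Wars averaged 117 ± 2.22 CPM at 24 h and 118 ± 8.03 CPM at 8 h in untreated cells. C1qtnf1 differed by -1.51, Epha3, an ephrin receptor, by -1.87, Rnf128 by -2.16 and Cemip, which breaks down hyaluronan, by -2.04. Epha3 averaged 1.53 ± 0.344 CPM at 24 h and 5.202 ± 0.819 CPM at 8 h in IFN-gamma, and Cemip 1.86 ± 0.644 and 4.61 ± 0.37 CPM. Upp1, at -2.12, and the scaffold protein Ahnak, at -1.75, passed with all 16 libraries, but most single libraries left out ended the call. That of Upp1 held only without the IFN-gamma 24 h replicate 1 or the IFN-gamma 8 h replicate 2 or the untreated 24 h replicate 4, and was otherwise 0.0519 to 0.0745 in adjusted p. That of Ahnak held only without the IFN-gamma 8 h replicate 3 or 4 or the untreated 24 h replicate 2 or 3 or the untreated 8 h replicate 4, and was otherwise 0.0504 to 0.285. Cemip lost its call without the untreated 24 h replicate 4 (adjusted p 0.0842).

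**Figure D4:**
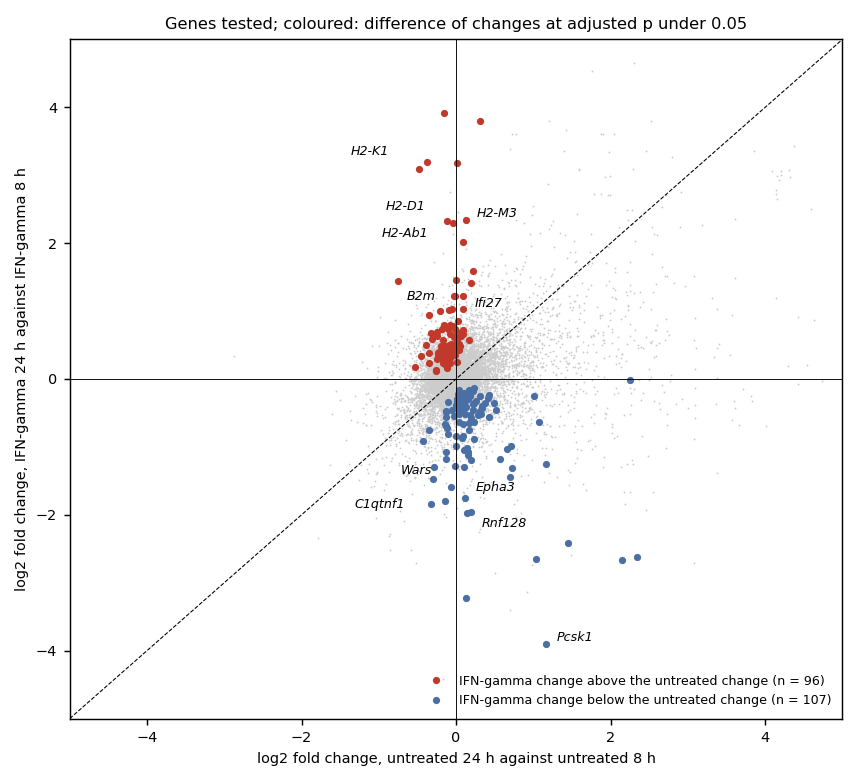
Log2 fold change, 24 h against 8 h, in IFN-gamma cells (vertical) against that in untreated cells (horizontal) for the genes tested, with 1 gene outside the axes; colour marks genes whose changes differed at an adjusted p under 0.05 (96 above, 107 below) and the dashed line marks equal changes. H2-K1 and Pcsk1 lie far from that line, at 3.19 and -3.91 in IFN-gamma cells.

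Genes of the oligodendrocyte lineage moved in part as they did in untreated cells. Of 14 premyelinating genes, 4 rose and 0 fell, with a median log2 fold change of 0.86 beside 1.42 in untreated cells, where 3 rose. Neu4, a sialidase, had 8.55, 26.5, 18.4 and 24.7 CPM at 24 h and 3.09, 3.03, 4.08 and 4.37 CPM at 8 h, and averaged 41.4 ± 13.9 and 14.1 ± 5.52 CPM in untreated cells at 24 and 8 h. It rose in both, and the difference of the changes had an edgeR adjusted p of 0.489. Gpr17, a receptor of committed progenitors, had 331, 845, 777 and 881 CPM at 24 h and 166, 192, 242 and 326 CPM at 8 h. Replicate 1 of 24 h was the lowest of its group and just above the highest library of 8 h, and the log2 fold change was 1.61 ± 0.35 (edgeR adjusted p 0.00234). Itpr2, a calcium channel, had 46.5, 138, 88.3 and 112 CPM at 24 h and 31.3, 43.1, 33.7 and 50.1 CPM at 8 h and Kif19a averaged 7.17 ± 2.76 and 1.99 ± 0.926 CPM, and each of these calls held only with all libraries or without the 24 h replicate 1 or the 8 h replicate 4. The count of 4 was 2 without any of the 8 h replicates 1, 2 and 3 or the 24 h replicates 2, 3 and 4.
Of 23 genes of myelin and maturation, 1 rose and 0 fell (1 fell without the 24 h replicate 1). Gal3st1, a sulphotransferase for myelin lipids, averaged 42.7 ± 8.41 CPM at 24 h and 26.5 ± 3.303 CPM at 8 h, and its edgeR adjusted p of 0.0468 was 0.0654 to 0.162 without any library but the 24 h replicate 1. The myelin proteins Mbp, Mag, Mog and Cnp did not pass in the edgeR fit of all groups. Mbp averaged 48.5 ± 23.5 CPM at 24 h and 35.9 ± 18.6 CPM at 8 h in IFN-gamma. Mag averaged 40.8 ± 23.6 and 28.6 ± 14.95 CPM, and Mog 0.483 ± 0.248 and 0.333 ± 0.116 CPM (SD, n = 4 each). Cnp averaged 765 ± 169 CPM at 24 h and 456 ± 82.4 CPM at 8 h, and its adjusted p was 0.0144 in the fit of the 8 libraries and 0.0352 with a term for the range of library numbers. Genes that mark the start of myelination were also short of the threshold in the fit of all groups. Enpp6 averaged 18.99 ± 11.1 CPM at 24 h and 10.96 ± 4.82 CPM at 8 h, and Bmp4 1.38 ± 0.692 and 0.388 ± 0.217 CPM (adjusted p 0.0251 in the fit of the 8 libraries). The median of the 23 was 0.44 in IFN-gamma and 0.73 in untreated cells, where 0 passed. Untreated Mbp averaged 157 CPM at 24 h and 53.7 CPM at 8 h, a log2 fold change of 1.56 beside 0.44 in IFN-gamma. Untreated Enpp6 averaged 145 and 24.1 CPM (2.60 beside 0.80), and Bmp4 14.9 and 2.63 CPM (2.53 beside 1.85). For Mag, Mog and Cnp the untreated log2 fold changes were 1.77, 2.02 and 0.90, beside 0.52, 0.53 and 0.75. None of the 23 genes of myelin and maturation passed the test against the untreated change in edgeR or DESeq2, and 3 had an unadjusted p under 0.05 in edgeR.
Of 16 lineage transcription factors, 2 rose and 2 fell. Sox8 had 163, 318, 209 and 232 CPM at 24 h and 117, 131, 130.03 and 134 CPM at 8 h, and Myrf, the regulator that myelin genes need, had 35.5, 77.1, 66.004 and 73.5 CPM at 24 h and 23.6, 33.6, 29.2 and 37.5 CPM at 8 h. Sox8 was separate between groups, and Myrf overlapped through replicate 1 of 24 h, with an edgeR adjusted p of 0.026 that was 0.0527 to 0.105 without the 24 h replicate 2, 3 or 4 or the 8 h replicate 1, 2 or 3. Tcf12, a partner of the OLIG factors, averaged 548 ± 12.8 CPM at 24 h and 665 ± 6.96 CPM at 8 h and Sox11, a factor of immature cells, 862 ± 122 and 1166 ± 118 CPM (SD, n = 4 each), and both were lower. The call of Sox8 was lost without the 24 h replicate 2, and that of Sox11 without the 24 h replicate 3 or 4 or the 8 h replicate 2 or 3.
Of 17 progenitor genes, 4 rose and 1 fell. C1ql1, a secreted synaptic protein, had 7.56, 10.9, 9.33 and 10.3 CPM at 24 h and 3.44, 3.71, 4.08 and 3.596 CPM at 8 h, fully separate. The proteoglycan Cspg5 averaged 425 ± 32.6 and 294 ± 15.9 CPM and Cdo1, a cysteine dioxygenase, 81.3 ± 10.9 and 53.8 ± 6.48 CPM, the call of Cdo1 being lost without the 24 h replicate 2, 3 or 4 or the 8 h replicate 1 or 4. Vcan, another proteoglycan, was lower, at 119 ± 8.26 CPM at 24 h and 155 ± 13.3 CPM at 8 h. Pdgfra, the growth factor receptor of progenitors, averaged 1709 ± 81.3 CPM at 24 h and 1441 ± 70.05 CPM at 8 h and Cspg4 (NG2) 480.4 ± 31.04 and 360.4 ± 24.6 CPM, with edgeR adjusted p of 0.437 and 0.164, and 0.0221 and 0.00274 in the fit of the 8 libraries, where 9 of the 17 rose. The count of 4 that rose was 2 without the 8 h replicate 1 or 4 or the 24 h replicate 2, 3 or 4.

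**Figure D5:**
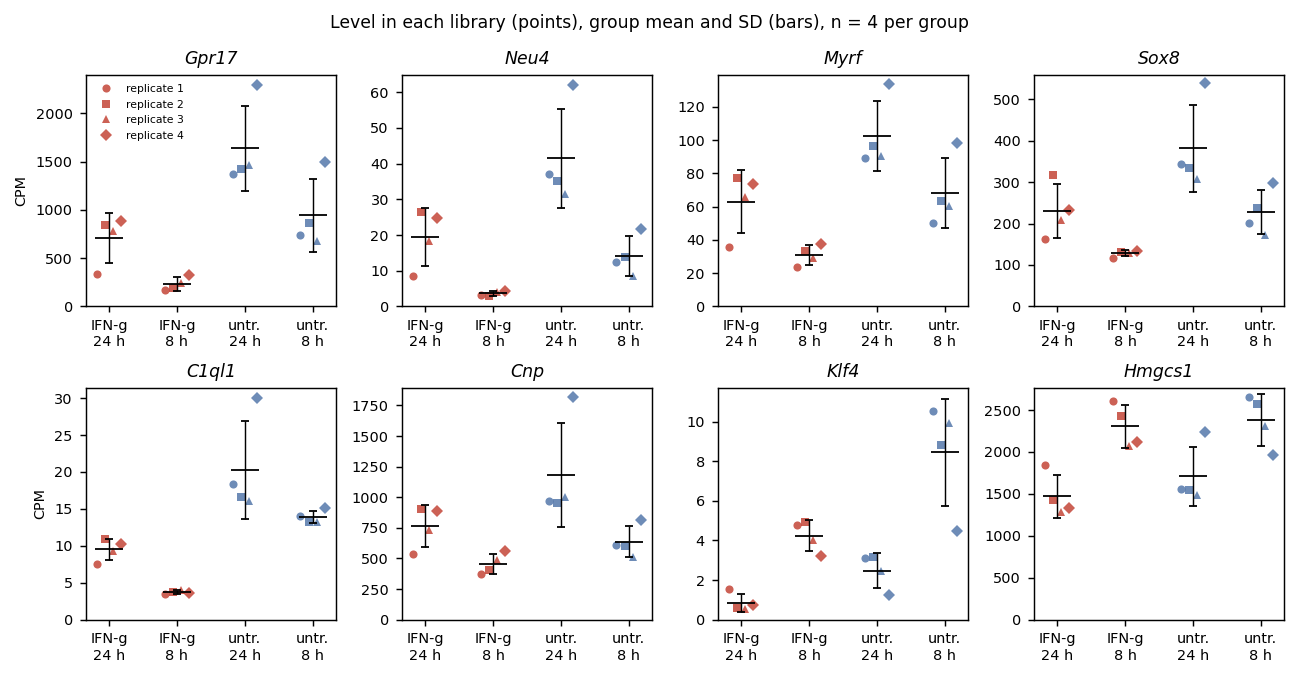
Level in CPM of 8 genes in each library (points, 1 symbol per replicate) with the mean and SD (bars, n = 4 per group), IFN-gamma 24 h left of IFN-gamma 8 h and untreated 24 h left of untreated 8 h. Neu4, Gpr17, Sox8 and C1ql1 are higher at 24 h in IFN-gamma, Klf4 and Hmgcs1 lower, and replicate 1 of IFN-gamma 24 h has the lowest Gpr17, Neu4 and Myrf of its group.

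Part of the genes of cholesterol biosynthesis, a main cost of making myelin, fell with time in both conditions. Of 23 genes, 0 rose and 8 fell in IFN-gamma (median log2 fold change -0.48) and 6 fell in untreated cells (median -0.58), and 0 passed the edgeR test of the difference of these changes or its DESeq2 form, with 1 at an unadjusted p under 0.05 in edgeR. Hmgcs1, the synthase at the entry of the pathway, had 1843, 1423, 1286 and 1329 CPM at 24 h and 2608, 2423, 2075 and 2116 CPM at 8 h. Lss, which closes the sterol rings, had 475, 307, 315 and 313 CPM at 24 h and 688, 578, 457 and 519 CPM at 8 h. Both were lower at 24 h, with replicate 1 the highest of its group, and Lss overlapped through that library. Their calls were lost without the 24 h replicate 3 or the 8 h replicate 1 for Hmgcs1 and the 24 h replicate 2, 3 or 4 or the 8 h replicate 1 for Lss. Ebp, a sterol isomerase, averaged 26.3 ± 3.35 CPM at 24 h and 41.9 ± 4.79 CPM at 8 h (SD, n = 4 each) and did not overlap. The count of 8 rested on single libraries: it was 18 without the 24 h replicate 1, 1 without the 24 h replicate 3 or the 8 h replicate 1, 2 without the 24 h replicate 2 or 4 and 3 without the 8 h replicate 2.
Of 21 DNA replication genes, 2 rose and 0 fell, the cyclins Ccne2, at 81.8, 54.4, 73.1 and 71.4 CPM at 24 h and 37.7, 37.5, 46.03 and 46.2 CPM at 8 h, and Ccne1, at 47.3, 30.5, 44.9 and 40.6 CPM at 24 h and 28.01, 25.04, 29.3 and 29.9 CPM at 8 h. Both were separate between groups, the call of Ccne1 was lost without the 24 h replicate 1 or 3 or the 8 h replicate 2 (edgeR adjusted p 0.0699 to 0.0755), and the fit of the 8 libraries called 11 of the 21. The count of 2 was 5 without the 24 h replicate 2 and 1 without the 24 h replicate 1 or 3 or the 8 h replicate 2. The median of the list was 0.46, beside -0.27 in untreated cells, and 0 members passed the test of the difference in edgeR, where 18 had an unadjusted p under 0.05, and 3 passed in DESeq2. Of 22 genes of mitosis, 0 passed in edgeR or DESeq2, and 0 had an unadjusted p under 0.05 in edgeR. Mki67 averaged 734 ± 108 CPM at 24 h and 671 ± 63.5 CPM at 8 h and Top2a 1698 ± 289.8 and 1471 ± 50.8 CPM (SD, n = 4 each).

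Markers of other cell types were present at different levels, and some moved. Of 14 microglia and macrophage markers, Aif1 and C1qb had 0 reads over the 8 libraries and 3 passed the filter. The summed level of these 3 was 5.34 to 6.92 CPM at 24 h and 6.28 to 7.22 CPM at 8 h. Which cells the class II RNA came from was not tested. P2ry12 fell, at 1.43 ± 0.321 CPM at 24 h and 3.51 ± 0.601 CPM at 8 h, and Fcer1g rose, at 0.524 ± 0.189 and 0.159 ± 0.0209 CPM, a call lost without the 24 h replicate 3.
Of 7 neuron markers tested of 10, 2 fell, Tubb3 at 165 ± 25.6 CPM at 24 h and 294 ± 30.4 CPM at 8 h and Nefm at 9.21 ± 1.16 and 13.8 ± 1.42 CPM (SD, n = 4 each). The call of Nefm was lost without the 24 h replicate 2, 3 or 4 or the 8 h replicate 2 or 4. The summed level of the 7 was 172 to 237 CPM at 24 h and 314 to 368 CPM at 8 h. Most of it was Tubb3, at 132 to 194 CPM at 24 h and 263 to 322 CPM at 8 h. The part of these markers in the falls of Vgf, Scg2 and Pcsk1, genes of secretory granules, was not tested.
Of 10 astrocyte markers, S100b, which oligodendrocytes express too, and Aldoc rose and Slc1a3 fell, and the summed level was 641 to 687 CPM at 24 h and 585 to 636 CPM at 8 h. The call of S100b was lost without the 24 h replicate 4 or the 8 h replicate 1 or 2, and that of Slc1a3 without the 24 h replicate 2, 3 or 4 or the 8 h replicate 1, 2, 3 or 4. Of 6 endothelial and mural markers tested, Kdr fell, while Cldn5 and Cdh5 had 0 reads, and the summed level was 26.2 to 37.5 CPM at 24 h and 29.1 to 33.2 CPM at 8 h. Of 3 fibroblast and meningeal markers tested of 8, the growth factor Igf2 rose, with 51.5, 90.6, 41.7 and 49.7 CPM at 24 h and 21.7, 25.6, 12.4 and 18.2 CPM at 8 h, and the summed level was 87.1 to 125 CPM at 24 h and 52.4 to 59.4 CPM at 8 h. Of 26 ribosomal protein genes and 11 mitochondrially encoded transcripts, 0 passed in edgeR or DESeq2 (0 and 1 at an unadjusted p under 0.05 in edgeR), with medians of -0.04 and -0.02.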

How the data were processed

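RNA of 40 libraries in 10 groups of 4 was sequenced. The authors deposited a table of raw read counts for 39056 gene identifiers, of which 38872 have a symbol in GENCODE M21 (used for names only), and a table of estimated counts for 112588 transcripts, rounded here after summing per gene. STAR, featureCounts, kallisto and edgeR are named, without versions or roles, per the submitters' processing notes. Genome build, annotation and strand setting: not given in the sources used here. Counts of overlapping genes and near copies are therefore uncertain.

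Genes were filtered with filterByExpr (minimum count 10) and scaled by TMM, and all 40 libraries entered 1 model with a mean per group (edgeR 4.0.16, R 4.3.3, glmQLFit, glmQLFTest, 30 residual degrees of freedom, prior count 0.125), with Benjamini-Hochberg adjustment over 15135 genes. SE is the log2 fold change divided by the root of F. Depth was 13165483 to 22651092 reads on genes, so genes with few reads are imprecise. The model was also run on simulated counts with known changes, where each gene otherwise had the same mean in all groups. That setting holds no genes near 0 in untreated cells and high in IFN-gamma, so it does not test the shared spread for them. Classes of early and late genes came from the 1 h and 48 h libraries.

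The members, the 32 gene lists and the named genes were chosen with earlier results of these data known. Named genes are the 10 largest rises and falls with no overlap and a mean log2 CPM of at least 1, the 6 largest differences from the untreated change in each direction, up to 4 called members of each list by p, and a fixed set. Members of the classes, and H2-T10, H2-T22, H2-T24 and H2-DMa, were named after their values were seen. Some genes that this rule names are not reported here. Alternatives were RLE factors, DESeq2 1.42.0, no filter, a block or a split by library number (lower and upper 20), the isoform table, the Y-linked level as covariate, the compared groups alone, other folds for the classes and each library left out. The block together with the Y-linked covariate was added after seeing the data. Library numbers are not called batches in the labels. Thapsigargin libraries entered the fit only. Promoters are from a RefSeq table that holds 9 of the 12 class I chain genes, 12 of 14 of peptide supply, 5 of 7 class II, 4 of 10 guanylate-binding protein and 10 of 13 immunity-related GTPase genes.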

Additional observations from a re-analysis of the deposited data

Results flagged for a closer look

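In groups of 4, a library far from the other 3 was looked for in 284 groups of values of the named genes, and 15 were found. Chance gives about 1 in 20, and the count found is close to that share. The list below thus does not by itself set a library apart. At 24 h, replicate 1 was high for Tnc (22.8 CPM, others 4.08 to 6.77), Vgf (62.1, others 9.98 to 12.9), Lss (475, others 307 to 315), Ddit3 (10.1, others 8.01 to 8.33) and Trib3 (10.3, others 3.70 to 3.94) and low for Psmb9 (195, others 203 to 205). Replicate 2 of 24 h was low for Irf1 (789 CPM, others 879.9 to 886). At 8 h, replicate 1 was low for Jak1 (148 CPM, others 162 to 163) and high for Cxcl9 (1.86, others 0.898 to 1.05). Replicate 2 of 8 h was low for Casp1 (10.9 CPM, others 12.1 to 12.2) and Casp4 (26.3, others from 31.4), and high for Nfkbiz (27.2, others 23.6 to 23.9), Gbp5 (71.9, others 64.5 to 65.5) and Serpina3g (2.41, others 1.60 to 1.67). Replicate 4 of 8 h was low for Sox11 (990 CPM, others 1201 to 1241). The part of these libraries in the results is given as values without them in the report.

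For 24 named genes the change from 8 to 24 h in IFN-gamma cells differed from that in untreated cells in edgeR's interaction test. On the log2 scale, IFN-gamma minus untreated, the class I difference was 4.08 for H2-Q6, 3.58 for H2-Q7, 3.57 for H2-K1, 2.44 for H2-D1, 2.21 for H2-M3, 1.93 for H2-Q4 and 1.25 for B2m. In class II it was 3.17 for H2-Eb1 and 2.33 for H2-Ab1. H2-Q6 and H2-Eb1 were near 0 in untreated cells, with an SE of 1.04 and 0.77 on these differences. Ifi27 differed by 1.13 and the astrocyte marker Aldoc by 0.634. Below the untreated change were Pcsk1 at -5.07, Rnf128 at -2.16, Upp1 at -2.12, Cemip at -2.04, Epha3 at -1.87, Ahnak at -1.75 and C1qtnf1 at -1.51. So were P2ry12, listed as a microglia marker, at -1.40, and Tubb3, listed as a neuron marker, at -0.835. Which cells the RNA of these 2 genes came from was not tested. Also below were Wars at -1.27, Jak1 at -0.385, Tcf12 at -0.320 and Stat3 at -0.236. Tcf12 lost its call without the IFN-gamma 24 h replicate 1 or the IFN-gamma 8 h replicate 1 or 3 or the untreated 24 h replicate 4, with edgeR adjusted p of 0.0512 to 0.0647, and Stat3 without the IFN-gamma 8 h replicate 3 or the untreated 8 h replicate 3, with 0.0646 and 0.0881.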

How the results depend on the processing

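None of the 90 named genes that passed, and none of the 24 that passed the interaction, changed sign under any alternative run. Many of them were named because they passed, often with no overlap between groups, and each run used the same libraries or a part of them. A change of sign was therefore unlikely from the start, and its absence says little. Of the 52 named genes that did not pass, 8 changed sign, among them Trib3 (-0.22 to 0.46) and Cxcl10 (-0.51 to 0.19). The count of genes changed in IFN-gamma cells, 1369, was 889 with no filter, 1589 with the library range block and the Y-linked covariate, 199 and 516 in the lower and upper 20 library numbers alone, 781 in the isoform table (34.1% higher, beside 48.4%) and 895 to 1306 with 1 library left out. The untreated count, 53, was 271 in DESeq2, 225 with the library range block, 231 with that block and the Y-linked covariate, 0 and 3 in the lower and upper numbers, 15 in the isoform table, 5 in the compared groups alone and 9 to 177 with 1 library left out. The interaction count, 203, was 344 in DESeq2, 105 with no filter, 13 and 37 in the lower and upper numbers, 83 in the isoform table, 346 in the compared groups alone and 125 to 277 with 1 library left out. The 195 genes that differed at 1 h were 80 in the lower numbers and 147 to 204 with 1 library left out, and the 5570 at 48 h were 3039 in the lower numbers, 2041 in the compared groups alone and 4135 to 6441. Changed genes of the class higher at 1 h and 48 h, 15, were 0 and 6 in the lower and upper numbers, 5 in the isoform table, 39 with no minimum fold, 9 at 4-fold and 5 to 19 with 1 library left out. Those higher at 1 h only, 2, were 0 with no filter or in the lower numbers, 1 in the isoform table or with the Y-linked covariate, 4 with no minimum fold, 0 at 4-fold and 0 to 3. Those higher at 48 h only, 143, were 42 and 79 in the lower and upper numbers, 358 with no minimum fold, 74 at 4-fold and 108 to 198.

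Of 142 named genes tested, 90 passed; 19 more passed and 1 no longer did in the compared groups alone, 22 no longer passed in the isoform table, and 50 and 40 no longer did in the lower and upper numbers, where groups hold 2 libraries. No paired analysis was possible because the labels tie no library to another: they give no replicate numbers, only a library number unique to each sample. Replicate numbers here follow accession order. In IFN-gamma at 8 and 24 h, Y-linked genes had 7.28 and 6.74 CPM in replicate 1 and 0.661 and 0.656 CPM in replicate 3. Xist had 9.60 and 11.1 CPM in replicate 2 and 0.321 and 0.260 CPM in replicate 4. Same-numbered libraries were thus alike, but a pairing by these levels was not tested and the p-values take no account of it. Depth limits genes near 0 in untreated cells. The causes of these differences were not tested.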
